A study of Mus musculus with 53 samples.

Results

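The barcodes described here are those of GABAergic interneurons in the mouse cerebellum at postnatal day 7 (P7). Members were chosen by measured UMI counts of marker genes. A barcode was counted as a member when it held 1000 to 20000 transcripts (unique molecular identifiers, UMIs) and at least 500 genes. It also had to hold UMIs of at least 2 of 5 marker genes, at most 1 of 4 granule-lineage genes (Barhl1, Atoh1, Neurod2 and Fat2) and at most 1 of 4 Purkinje genes (Pcp2, Car8, Ppp1r17 and Skor2). The markers were Gad1 and Gad2, which make GABA, Slc32a1, which loads GABA and glycine into synaptic vesicles, Slc6a5, the neuronal glycine transporter, and Pax2, a transcription factor of the interneuron lineage. By this rule 5873 of 62348 barcodes that passed the depth limits were members, or 9.42%.

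The study profiled single cells of P7 cerebella in 10 libraries, each from 1 animal. The 4 groups were Insm1fl/fl controls (2 libraries), Insm1cKO mutants (3 libraries), Tead1fl/fl;Tead2fl/fl controls (2 libraries) and Tead1;2cKO mutants (3 libraries). Both mutants carried homozygous floxed alleles with Atoh1Cre, a recombinase driven from a gene of the granule lineage, and the controls carried the floxed alleles without Cre. Insm1 is a zinc-finger repressor of neuroendocrine and neuronal progenitors, and Tead1 and Tead2 are the DNA-binding partners of the Hippo pathway's coactivators. Every library with number 1 came from all lobules, and those numbered 2 and 3 came from cerebella without lobules IX and X. The series title names the repression of muscle fate in the developing cerebellum as its subject.

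Cerebellar GABAergic interneurons arise from Ptf1a-expressing progenitors of the ventricular zone, and not from the Atoh1-expressing rhombic lip that gives granule cells. Their precursors switch on Pax2 around the last division, migrate through the white matter during the first postnatal weeks, and settle as Golgi cells, Purkinje-layer interneurons and the basket and stellate cells of the molecular layer. Granule cell precursors divide in the outer layer over the same days, so P7 tissue holds interneurons at every step from division to early synapse formation beside a large dividing granule population. Atoh1Cre recombines in the granule lineage, and whether it also acted in the members was not tested. The comparisons below therefore do not tell effects within the members from effects of neighbouring cells.

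The members numbered 383 to 733 per library and their median depth was 5510 to 7957 UMIs. No barcode name was shared by any pair of libraries. Pax2 had a UMI in 95.7 to 99.1% of the members of a library, Gad1 in 75.8 to 88.2%, Slc6a5 in 66.7 to 82.8%, Gad2 in 52.7 to 63.1% and Slc32a1 in 14.5 to 27.6%. These shares describe the rule and are no finding. After each barcode was thinned to 1000 UMIs, Gad1 was seen in 42.0 to 55.9% of members and in 1.62 to 3.61% of barcodes with at least 2 granule genes. Of the members, 20.04% held exactly 2 markers, 34.4% held 3, 36.1% held 4 and 9.501% held all 5. Just outside the rule lay 2631 barcodes with exactly 1 marker, and 1042 with enough markers but 2 granule genes. The latter were deep, with library medians of 12185 to 14870 UMIs, against 6580 to 8619 UMIs in the 2934 members with 1 granule gene.

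Of the rule's granule-lineage genes, members most often carried Neurod2, seen in 29.8 to 45.9% of them. After thinning to 1000 UMIs, Neurod2 was seen in 5.255 to 9.38% of members and 8.40 to 14.2% of granule barcodes. Barhl1 was seen in 0 to 1.64% and 11.3 to 17.9%, Atoh1 in 0 to 0.374% and 1.215 to 4.78%, and Fat2 in 0.459 to 2.87% and 9.86 to 47.8%. The Neurod2 ranges alone overlapped, although the rule limits these genes in members. A UMI of Neurod2 alone therefore does not mark a member as granule-like. Pvalb reached at most 0.826% of a library's members, Sst 0.577% and Grm2, a Golgi cell receptor, 1.147%. Ptf1a, the progenitor factor, reached at most 0.935%. The receptor tyrosine kinase Kit, found in molecular layer interneurons, was seen in 59.8 to 69.4% of members and Lhx5, an early GABAergic factor, in 40.4 to 63.6%. In the granule barcodes Kit reached 31.04% and Lhx5 6.70%, at a greater depth. Sorcs3 and Nxph1, from the list of molecular layer interneuron genes, were seen in 11.9 to 44.3% and 14.99 to 30.1% of members, against 5.34 to 15.3% and 13.4 to 28.4% of granule barcodes. Of these genes the rule used only Neurod2, Barhl1, Atoh1 and Fat2.

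The members fell into 13 clusters, and 7 of these carried the marker genes of another cell class at high depth. These 7 held 1844 members (31.4%), whose median of 11729 UMIs stood against 5448 UMIs in the other 4029. They were defined, after the data were seen, as clusters with at least 1.5 times the members' median UMIs and at least 2 times the typical cluster's level of another class's gene list. Clusters 1 and 6 (472 and 641 barcodes) were led by granule genes, among them Fat2 and Zmat4 in cluster 1 and Barhl1, Sfrp1 and Mfap4 in cluster 6. Cluster 8 (183 barcodes) was led by the astroglial genes Tnc, Aqp4 and Gfap, and cluster 9 (91 barcodes) by the collagens Col3a1 and Col1a1. Cluster 11 (90 barcodes) was led by the oligodendrocyte-lineage genes Tnr, Gpr17 and Mag, and cluster 12 (55 barcodes) by the myeloid genes Mrc1 and Csf1r. Cluster 13 (312 barcodes) was led by the muscle genes Lincmd1, Mypn, Ttn and Myh3. It held no barcode of any of the 4 control libraries and 6.30 to 14.2% of the members of each mutant library. In cluster 13 Gad1 was seen in 83.0% of barcodes and Pax2 in 97.4%, values that the rule itself required in part. No doublet caller was run, and whether these barcodes hold 1 cell or several was not tested.

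The other 6 clusters did not meet that definition in full, and were compared by number. Clusters 2, 3, 5 and 7 reached the limit of 2 times for another class's list, but not the depth limit. This was the muscle list in cluster 7 (585 of 1000000 UMIs), the endothelial list in clusters 3 and 5, and the microglial list in cluster 2. So the 4029 members were not cleared of every list of another class. Cluster 5 (1411 barcodes; led by Klhl14, Galr1 and Megf11) had Pax2 in 99.9% and Gad1 in 93.5%. Cluster 3 (1367 barcodes; led by Cdh23, Spock1, Htr7 and the glycine receptor gene Glra2) had Gad1 in 98.9%. Cluster 7 (778 barcodes; led by Cpne6 and Frem1) had Pax2 in 99.4% but Gad1 in only 35.5%, with the proliferation gene Mki67 in 27.8%. Cluster 10 (344 barcodes; led by mitotic genes such as Kif14 and Kif11) had Mki67 in 98.0% and Gad1 in 55.2%. Cluster 4 (124 barcodes; led by Cdkl1 and Nxph1) had Kit in 90.3%. Cluster 2 held 5 barcodes of low depth with Calb1, Pcp4 and Car8 in the lead and no Pax2, which goes against the interneuron label; these 5 stayed among the 4029. Pax2 and Gad1 are markers of the rule, so their shares describe the clusters and support no order among them.

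**Figure D1:**
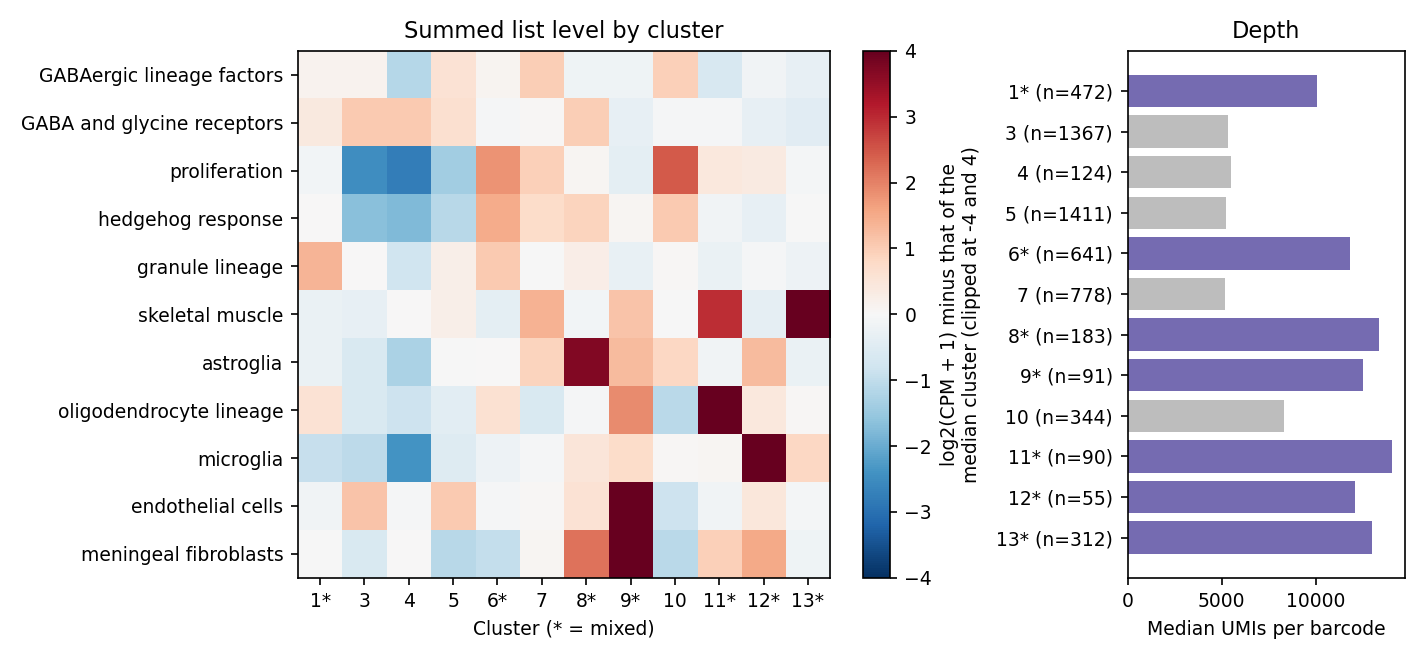
Left, heat map of summed list levels (rows, gene lists; columns, clusters, with cluster 2 and its 5 barcodes left out; colour, log2 of CPM + 1 minus that of the median cluster, clipped at the ends of the scale). Right, median UMIs per barcode of each cluster, with mixed clusters starred and in purple. The muscle list stands out in cluster 13, the granule list in clusters 1 and 6, and the glial, vascular and myeloid lists in clusters 8, 9, 11 and 12, all of which are deeper than the other clusters.

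The mixed clusters took different shares of the members in the groups. They made up 42.0 and 43.6% of members for the Insm1 controls against 26.6, 28.4 and 31.9% for the Insm1 mutants. In the Tead1/2 line the shares were 35.2 and 27.3% in controls and 24.3, 28.7 and 25.4% in mutants. Every comparison over all members is therefore a comparison of sums in which the weight of granule-marked barcodes, and in mutants of muscle-marked barcodes, also moved. For this reason the results below lead with the 4029 members outside the mixed clusters and with single clusters, and the fit over all members follows.

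Interneurons made up a somewhat larger share of barcodes in the Insm1 mutants than in their controls. The shares were 8.35 and 8.25% in controls and 9.84, 9.97 and 11.2% in mutants, with no overlap. The means were 8.30% ± 0.0709 (SD, n = 2) and 10.3% ± 0.773 (SD, n = 3), and an exact two-sided permutation test gave p = 0.1, the smallest that 2 against 3 libraries allow here. In the Tead1/2 line the shares were 9.28 and 8.63% in controls and 9.94, 8.17 and 11.98% in mutants, which overlapped (difference of means 1.07 percentage points, exact permutation p = 0.6). Over both lines, with labels permuted within each line, the mean difference was 1.56 percentage points (exact permutation p = 0.07). Outside the mixed clusters the shares of the Insm1 line were 5.02 and 4.83% for the controls against 7.42, 7.34 and 7.94% for the mutants. Those of the Tead1/2 line were 6.22 and 6.43% for the controls against 7.71, 5.96 and 9.22% for the mutants. Shares outside the mixed clusters leave the mixed-cluster members out of the denominator too. Over all kept barcodes the Insm1 line had 4.84 and 4.66% in controls and 7.22, 7.13 and 7.66% in mutants. The Tead1/2 line had 6.02 and 6.27% in controls and 7.52, 5.82 and 8.94% in mutants. A share falls or rises with the number of every other cell type, so these values do not give cell numbers per cerebellum. Set against the barcodes outside the granule lineage, the difference over both lines was 2.08 percentage points (exact permutation p = 0.09), and 2.66 outside the mixed clusters. That denominator uses genes which differed between genotypes within the granule barcodes. In the Insm1 line Barhl1 was seen in 81.7 and 82.2% of them in controls and in 60.4 to 63.4% in mutants, and Fat2 in 51.8 and 48.1% against 84.0 to 85.5%. The Tead1/2 line had the same order, with Barhl1 in 86.1 and 83.8% against 65.4 to 68.6% and Fat2 in 43.3 and 47.0% against 85.8 to 90.3%. Both genes are also among the 4 granule genes that count toward excluding a barcode, and their part in the share differences was not tested. The ratio to Purkinje barcodes rested on 4 to 21 Purkinje barcodes per library and its difference was -33.6 interneurons per Purkinje barcode (exact permutation p = 0.12).

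**Figure D2:**
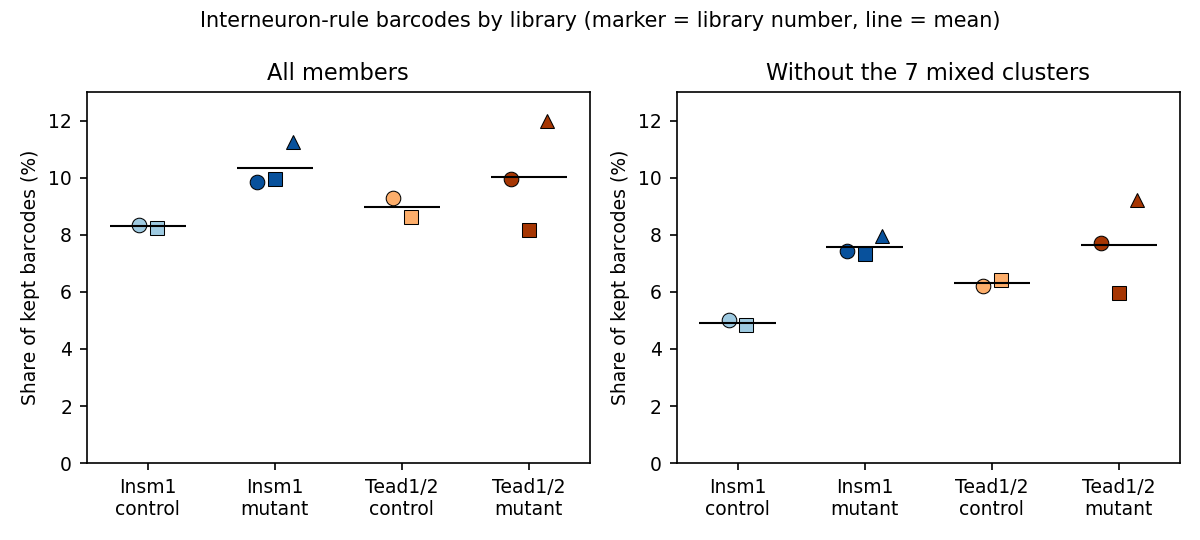
Interneuron share of kept barcodes (percent, y axis) in each library, for all members and for members outside the 7 mixed clusters (markers, library numbers; lines, group means). In the panel without the mixed clusters their members are also left out of the kept barcodes. All 3 Insm1 mutants lie above both Insm1 controls in both panels, while the Tead1/2 groups overlap.

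Within the members outside the mixed clusters, the make-up by cluster also differed between the lines. Cluster 3 made up 33.7 and 33.4% of these members in the Tead1/2 controls and 25.3, 25.6 and 26.9% in the mutants. In the Insm1 line it made up 40.4 and 46.0% in controls and 39.4, 40.9 and 33.7% in mutants. The Pax2-positive, partly dividing clusters 7 and 10 together made up 29.7 and 28.4% of the Tead1/2 control members against 28.4, 36.6 and 35.8% of the mutant ones. In the Insm1 line their share was 19.95 and 20.53% without Cre and 22.74, 24.48 and 27.97% in mutants. These are descriptions without a test. They matter for the gene values below, because a gene with a high level in 1 cluster also moves with that cluster's share. None of the 10 leading genes of cluster 3 was called in the Tead1/2 comparison. Only 0.57% of all genes tested were called there, so this absence does not set the 10 apart. The part of the cluster shares in the gene values was not tested.

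Insm1 and Tead2 were much lower in the granule barcodes of their mutants, while neither passed the test in the interneurons outside the mixed clusters. Levels are given in CPM, a gene's UMIs per 1000000 UMIs of the class in a library. Insm1 (ENSMUSG00000068154) stood at 60.5 and 62.8 CPM in granule barcodes of the controls and at 12.5, 4.68 and 5.79 CPM in those of the Insm1 mutants. In interneurons outside the mixed clusters it stood at 18.4 and 33.8 CPM in controls and at 22.6, 19.9 and 32.7 CPM in mutants. Those groups overlapped, with a log2 fold change of -0.06 (edgeR quasi-likelihood test, adjusted p = 0.995). Over all members Insm1 fell by 0.96 on the log2 scale (edgeR, adjusted p = 0.0196), from 34.5 and 44.6 to 21.8, 13.8 and 26.4 CPM after scaling by edgeR's TMM factors. Its level in the granule-marked cluster 6 was 59.3 CPM, and the share of such barcodes was lower in the mutants. The part of that share in the fall of Insm1 was not tested.

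Tead2 (ENSMUSG00000030796) showed the same order in the Tead1/2 line, at 31.7 and 32.3 CPM in control granule barcodes and 10.5, 7.24 and 8.25 CPM in mutant ones. In interneurons outside the mixed clusters it stood at 7.82 and 8.25 CPM in controls and at 5.55, 3.79 and 3.64 CPM in mutants. These values did not overlap, as was so for 2840 of the 11222 genes tested in that line. The difference did not pass the test (log2 fold change -0.94, edgeR adjusted p = 0.391). Over all members Tead2 fell by 1.37 on the log2 scale (edgeR, adjusted p = 0.00212), from 14.8 and 12.9 to 7.83, 3.90 and 4.64 TMM-scaled CPM. Tead1 (ENSMUSG00000055320) stood higher in mutant granule barcodes, at 1427, 1482 and 1432 CPM against 577 and 566 CPM in controls. A gene-level count includes reads outside a deleted part, so it does not measure recombination. In the same interneurons Tead1 stood at 881 and 866 TMM-scaled CPM in controls and 786, 778 and 766 in mutants (log2 fold change -0.17, edgeR adjusted p = 0.616).

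In interneurons outside the mixed clusters the Tead1/2 mutants differed from their controls in 64 genes, while no gene passed the test in the Insm1 mutants. Of 11222 genes tested in edgeR's quasi-likelihood fit over the 10 summed libraries, 35 rose (0.312% of those tested) and 29 fell (0.258%) in the Tead1/2 mutants at an adjusted p under 0.05, or 0.57% in all. The Insm1 count was 0 with 688 genes at an unadjusted p under 0.05, and DESeq2 called 2. At an unadjusted p under 0.05 the Tead1/2 comparison held 909 genes, and DESeq2 called 51. The Tead1/2 count fell to 37 with a sex term, to 23 without Tead1/2 control 1, to 18 without control 2 and to 30 without mutant 2. The 6 mitochondrial transcripts tested were all higher in Tead1/2 mutants (median log2 fold change 0.16) and all lower in Insm1 mutants (-0.23), none called. Over all members Tead1/2 mutant 1 had chi-squares per degree of freedom of 6.056 and 8.112 against mutants 2 and 3, which had 4.235 between them. The part of these differences in the calls was not tested. Xist marked 6 of the 10 libraries as female and Ddx3y the other 4, with both Tead1/2 controls female and 1 of 3 Tead1/2 mutants female, so sex and genotype partly coincide in that line. A call in one line and not in the other does not show that the effects differ. The difference between the effects was tested for every gene and 1 gene, Grin2b, passed (0.00891% of those tested; 589 at an unadjusted p under 0.05). The 64 genes were named here after their values were seen. Mutants and controls of the Tead1/2 line did not overlap in 2840 of the 11222 genes tested, all 64 called genes among them. In the Insm1 line 2495 of the tested genes did not overlap, with none called. Levels per library from here on are TMM-scaled CPM, in the order control 1, control 2, mutant 1, mutant 2, mutant 3, and of the members outside the mixed clusters unless all members are named. Levels of a cluster or a list are CPM of all UMIs.

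Of the 64, 3 falls and 5 rises were called without every one of the 10 libraries in turn, and all 64 genes had the same sign in each of those fits. The falls among these were Grin2b, Ldlrad4 and Cadm2. Grin2b (ENSMUSG00000030209) encodes the GluN2B subunit of the NMDA receptor, which is typical of young neurons. It stood at 241 and 271 CPM in Tead1/2 controls and at 131, 100 and 121 CPM in mutants. The fall was 1.12 ± 0.11 (SE) on the log2 scale (edgeR, adjusted p = 1e-05), and lay between 1.03 and 1.21 when any 1 library was left out. Grin2b was lower within cluster 3 (log2 fold change -0.88, edgeR adjusted p = 0.000131) and within cluster 5 (-1.04, adjusted p = 0.00669) as well, so the fall was also present inside clusters. In cluster 3 its CPM of all UMIs ranged from 539 to 585 in controls and from 297 to 323 in mutants, and in cluster 5 from 144 to 148 and from 54.0 to 96.3.

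The controls of the 2 lines were far apart in Grin2b, which limits the comparison of the effects. The Insm1 controls stood at 851 and 836 CPM and the Insm1 mutants at 760, 753 and 658 CPM (log2 fold change -0.22, edgeR adjusted p = 0.767). The Tead1/2 effect was lower than the Insm1 effect by 0.91 on the log2 scale (edgeR, adjusted p = 0.0495). That call was lost without any 1 of 8 libraries (adjusted p = 0.0608 to 0.427), and was present without Insm1 mutant 3 (adjusted p = 0.0138) or Tead1/2 mutant 1 (adjusted p = 0.0034).

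Ldlrad4 (ENSMUSG00000024544), a negative regulator of TGF-beta signalling, stood at 509 and 444 CPM in Tead1/2 controls and at 265, 243 and 296 CPM in mutants. Its fall was 0.83 ± 0.09 (SE) on the log2 scale (edgeR, adjusted p = 6.85e-05), with calls in clusters 5 and 7 fitted alone (-0.88 and -0.83). The Insm1 line pointed the same way, at 530 and 568 CPM in controls and 395, 404 and 373 CPM in mutants, without passing the test (log2 fold change -0.49, adjusted p = 0.123). Cadm2 (ENSMUSG00000064115), a synaptic adhesion molecule, stood at 335 and 343 CPM in controls and at 224, 179 and 202 CPM in Tead1/2 mutants. Its fall was 0.75 ± 0.115 (SE) on the log2 scale (edgeR, adjusted p = 0.00209), and it was called in cluster 5 alone (-0.83).

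Further falls lost the call when certain single libraries were left out, among them Rora, Myt1l and Plcb1. Rora, the nuclear receptor that molecular layer interneurons share with Purkinje cells, stood at 12948 and 14475 CPM in Tead1/2 controls and at 10686, 8752 and 9861 CPM in mutants. It fell by 0.49 ± 0.09 (SE) on the log2 scale (edgeR, adjusted p = 0.00994), with calls in clusters 5 and 7 alone, and lost the call without control 2 or without mutant 2 (highest adjusted p 0.284), and with a sex term. Cluster 4 had the highest Rora level of the clusters, and in the Insm1 line the groups overlapped at 16875, 15326, 16248, 15374 and 13581 CPM. Myt1l, a neuronal transcription factor, stood at 1522 and 1551 CPM in controls and 1173, 1027 and 1090 CPM in mutants (fell by 0.49, adjusted p = 0.00577). Plcb1, a phospholipase downstream of Gq-coupled receptors, stood at 1202 and 1141 CPM in controls and 899, 644 and 689 CPM in mutants (fell by 0.66, adjusted p = 0.0051). Without one or the other control the highest adjusted p was 0.101 for Plcb1, and without control 1, control 2 or mutant 2 it was 0.139 for Myt1l.

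Gabra2, a GABA-A receptor subunit, stood at 21.1 and 24.1 CPM in Tead1/2 controls and at 5.11, 7.12 and 7.33 CPM in mutants. It fell by 1.76 ± 0.32 (SE) on the log2 scale (edgeR, adjusted p = 0.00788), was called in cluster 5 alone (-2.30) and lost the call without either control (highest adjusted p 0.122). Gabra2 overlapped between the Insm1 groups, at 17.3, 16.2, 27.6, 12.3 and 9.57 CPM. Gabra2 and Grin2b were the called genes of their lists, 1 of 13 GABA and glycine receptor genes and 1 of 14 glutamate receptor genes tested, where 0.57% of all genes were called. Kcnip3, a potassium channel partner, stood at 42.6, 49.1, 25.9, 15.7 and 23.7 CPM, and lost its call without control 2 (adjusted p = 0.106). Wscd2 stood at 71.1, 96.3, 41.6, 38.5 and 41.8 CPM, and lost its call without control 2 (adjusted p = 0.232). Shb, a signalling adaptor, stood at 60.2, 36.3, 10.6, 13.9 and 14.2 CPM, and lost its call without control 1 (adjusted p = 0.0719). In all 3 genes the controls lay above every mutant. The groups did not overlap in any of the 64 called genes, so this does not set the 3 apart.

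The rises fell into genes at least 5 times higher in cluster 13 than outside the mixed clusters and genes below that limit. The first kind included Ttn and Myh3, which encode titin and the embryonic myosin heavy chain, and Igf2, H19 and Cdkn1c, imprinted genes of growth. Ttn (ENSMUSG00000051747) stood at 42.6 and 39.6 CPM in Tead1/2 controls and at 133, 523 and 359 CPM in mutants, a rise of 3.04 ± 0.38 (SE) on the log2 scale (edgeR, adjusted p = 0.000153). It was called in each of clusters 3, 5, 7 and 10 fitted alone, yet its level in cluster 13 was 14105 CPM against 176 CPM in the clusters outside the mixed ones. Igf2 (ENSMUSG00000048583) stood at 6.68, 7.55, 24.8, 40.6 and 34.5 CPM, with 1930 CPM in cluster 13. Myh3 (ENSMUSG00000020908) stood at 9.15, 15.1, 42.0, 87.6 and 73.1 CPM, with 2483 CPM in cluster 13. These 3 were called without every library in turn, and among clusters 3, 4, 5, 7 and 10 each was highest in cluster 7. H19 stood at 8.09, 4.25, 21.5, 51.7 and 27.1 CPM, with 1197 CPM in cluster 13, and lost its call without control 2 (adjusted p = 0.0577). In all, 12 of the 64 called genes, 9 of them rises, were at least 5 times higher in cluster 13 than outside the mixed clusters, as were 303 of the 11222 tested. Cluster 13 held mutant barcodes only, so a gene higher in mutants tends toward that side, and the count is a description. The muscle list itself, described below, was higher in the mutants in each of the 5 cell classes measured.

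The second kind included Gm32061 and Boc. Gm32061 (ENSMUSG00000108986), a predicted gene, stood at 25.3 and 19.8 CPM in Tead1/2 controls and at 76.0, 83.0 and 74.3 CPM in mutants, with 35.6 CPM of all UMIs in cluster 13. It rose by 1.76 ± 0.19 (SE) on the log2 scale (edgeR, adjusted p = 5.67e-05) and was called without every library in turn. Its highest cluster levels were 127 CPM in cluster 10 and 110 CPM in cluster 7. Gm32061 stood in the Insm1 line at 41.6, 41.3, 59.3, 92.9 and 56.2 CPM, without overlap, like 2495 of the 11222 genes tested. It did not pass the test there (edgeR, adjusted p = 0.312). Boc, a Hedgehog co-receptor, stood at 39.4 and 52.9 CPM in controls and at 88.7, 81.2 and 82.6 CPM in mutants. It rose by 0.88 ± 0.13 (SE) on the log2 scale (edgeR, adjusted p = 0.00199), and lost the call without control 1 (adjusted p = 0.127). Boc was called in none of the clusters fitted alone, and its level was 140 CPM in cluster 7 and 178 CPM in cluster 10 against 12.8 CPM in cluster 3. Its level was 115 CPM in cluster 13 against 64.3 CPM outside the mixed clusters, and was highest in the granule-led cluster 6. Boc stood in the Insm1 line at 44.0, 45.7, 52.9, 60.2 and 61.3 CPM, without passing the test. A second identifier under the symbol Arhgap26 (ENSMUSG00000118193) also rose, by 1.79 on the log2 scale. The gene of that symbol with the other identifier (ENSMUSG00000036452) had a log2 fold change of 0.37 and did not pass, so this rise is uncertain.

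**Figure D3:**
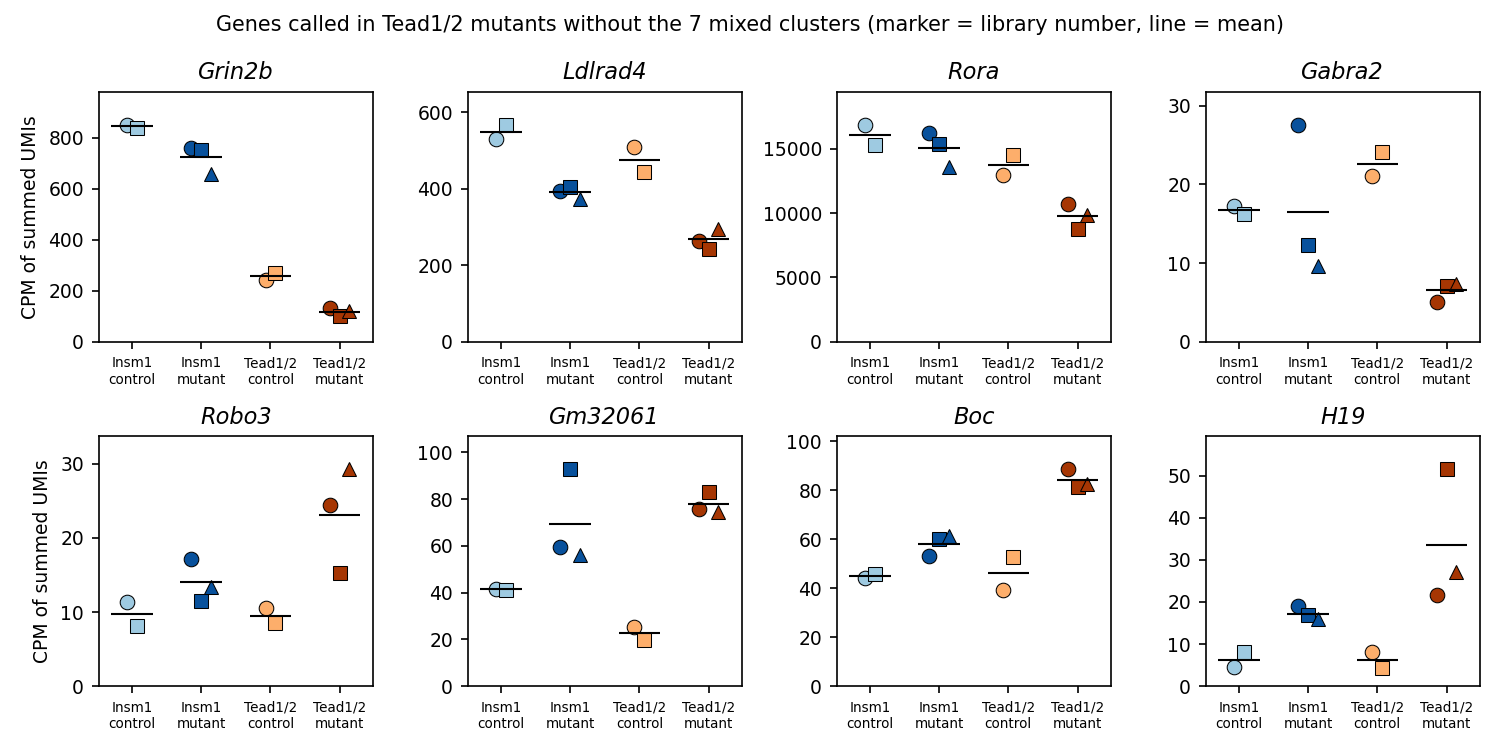
TMM-scaled CPM (y axes, linear) of 8 genes in the members outside the 7 mixed clusters (markers, library numbers; lines, group means). Grin2b, Ldlrad4, Rora and Gabra2 lie lower and Robo3, Gm32061, Boc and H19 higher in all 3 Tead1/2 mutants than in both Tead1/2 controls, and the controls of the 2 lines lie far apart in Grin2b.

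Other rises included Robo3, a guidance receptor of migrating neurons, at 10.6, 8.49, 24.5, 15.3 and 29.3 CPM. Its call was lost without any of 4 libraries, the 2 Tead1/2 controls and mutants 1 and 3 (highest adjusted p 0.389). Slco3a1, an organic anion transporter, stood at 391, 341, 554, 516 and 515 CPM, and lost its call without control 2 (adjusted p = 0.243). Slco3a1 was also 1 of 4 genes called in the Insm1 line when cluster 7 was fitted alone, with Zfyve28 and Crtac1 higher and Pde4d lower. Nptx1, a secreted pentraxin at synapses, stood at 36.6, 30.2, 58.1, 53.4 and 55.7 CPM, and lost its call without any of the 5 Tead1/2 libraries (highest adjusted p 0.473). Among the 35 rises, 24 (68.6%) had their highest level outside the mixed clusters in cluster 7 or 10, against 59.9% of all genes tested. Among the 29 falls, 23 (79.3%) had it in cluster 3, 4 or 5, against 40.1% of all genes tested. Most of these falls, 18, had it in cluster 4, with 4 in cluster 3 and 1 in cluster 5. Of all 11222 genes tested 1741, 1145 and 1609 had it in clusters 4, 3 and 5. Cluster 4 was small, with 3 to 7 barcodes in each Tead1/2 library. Of the 39 called genes that could be tested in each of clusters 3, 5, 7 and 10 alone, 34 had the same sign in all 4. These genes were chosen from the sum that includes those clusters, so like signs are no separate support. The same share among all tested genes was not computed. Fitted alone, cluster 3 gave 10 calls in the Tead1/2 line, cluster 5 gave 21, cluster 7 gave 13 and cluster 10 gave 1, which was Ttn.

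Outside the mixed clusters none of the 12 lineage factors, 8 genes of GABA and glycine handling or 8 molecular layer interneuron genes tested was called in either line. With 0.57% of all genes called in the Tead1/2 line and none in the Insm1 line, these counts do not set the lists apart from the background. Pax2 and Gad1, whose UMIs took part in the choice of members, are given as levels only. Pax2 stood between 1836 and 2145 CPM of all UMIs in the 10 libraries, and Gad1 between 801 and 1177 CPM. The 12 proliferation genes had a median log2 fold change of 0.20 in the Tead1/2 mutants, with 11 higher and none called. Over all members the same list had a median of -0.23 in that line, with 11 lower and none called, so its direction turned with the choice of members. Of the 13 synapse and excitability genes 11 were lower, with a median of -0.21 and none called. The median over all tested genes was -0.00. The 7 hedgehog response genes had a median of 0.42, 6 were higher and Boc alone was called. Gli2, an effector of the pathway, just missed the threshold, at 164, 170, 201, 229 and 241 CPM (log2 fold change 0.42, edgeR adjusted p = 0.0508). The hedgehog list also turned with the choice of members. Over all members its median was -0.16 in the Tead1/2 line, with 6 of 8 genes lower. For the Insm1 mutants it was -0.35 over all members, with 7 of 8 lower, and 0.22 outside the mixed clusters, with all 7 higher. In the Insm1 line the smallest adjusted p of any gene was 0.0931, for Vwc2, a secreted BMP regulator, at 4.95 and 19.9 CPM in controls and 0, 0.409 and 0.638 CPM in mutants.

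Over all 5873 members many more genes were called in both lines, and most of them had their highest cluster level in a mixed cluster. Of 13764 genes tested, 563 rose (4.09%) and 403 fell (2.93%) in the Insm1 mutants, or 966 in all (7.02%). In the Tead1/2 mutants 629 rose (4.57%) and 325 fell (2.36%), or 954 in all (6.93%). In both lines 404 genes rose and 190 fell. No gene passed the test of the difference between the lines in edgeR, with 754 at an unadjusted p under 0.05, and DESeq2 called 2. Of the rises, 55.4% in the Insm1 line and 59.8% in the Tead1/2 line had their highest cluster level in the muscle-led cluster 13, against 13.8% of all genes tested. Of the falls, 52.9% and 56.0% had theirs in the granule-led clusters 1 and 6, against 10.1% of all genes tested. These shares were partly fixed in advance and are descriptions only. Cluster 13 held no control barcode, so a gene higher in mutants tends to peak there. Clusters 1 and 6 each made up a smaller share of the members in every mutant library than in the controls of its line. When the members were thinned to the depth they have outside the mixed clusters, 664 and 738 genes were called. Of the 966 genes called in the Insm1 line 729 were tested outside the mixed clusters and none was called, and of the 954 in the Tead1/2 line 664 were tested and 46 were called. Leaving out Insm1 control 1 took the Insm1 count to 468, control 2 to 559 and mutant 2 to 628, and leaving out Tead1/2 control 1 or 2 took the Tead1/2 count to 457 or 515.

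The named genes of this larger fit show the pattern. Lincmd1, a muscle non-coding RNA, stood at 2.50 and 3.21 CPM in Insm1 controls and at 149, 175 and 169 CPM in mutants over all members. In the members outside those clusters it stood at 2.97, 2.95, 7.69, 4.91 and 4.47 CPM and did not pass the test (adjusted p = 0.846). Trim55, a muscle ubiquitin ligase, rose by 6.02 on the log2 scale in the Insm1 line and by 5.96 in the Tead1/2 line over all members. Tead4, a TEAD family member of muscle, rose by 4.38 in the Insm1 line and by 5.90 in the Tead1/2 line (edgeR, adjusted p = 0.000257 and 3.68e-05). Tead4 and Trim55 had too few counts outside the mixed clusters to be tested. Lincmd1 and Trim55 were among the leading genes of cluster 13, which held no control barcode.

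Among the falls over all members, Sfrp1, a secreted Wnt antagonist that led cluster 6, stood at 87.6 and 99.1 CPM in Insm1 controls and at 28.6, 25.4 and 17.8 CPM in mutants. Sfrp1 outside the mixed clusters stood at 4.45, 11.8, 2.71, 3.68 and 5.74 CPM. Grik2, a kainate receptor subunit, fell from 2128 and 2147 CPM to 911, 798 and 745 CPM over all members of the Insm1 line (fell by 1.39 on the log2 scale, edgeR adjusted p = 7.2e-05). With the mixed clusters left out it stood at 394 and 381 CPM in controls and 406, 379 and 342 CPM in mutants (log2 fold change -0.04, adjusted p = 0.975). Mki67 fell from 398 and 463 CPM to 217, 228 and 267 CPM over all members of the Insm1 line (fell by 0.86, adjusted p = 0.000243). In the other clusters it stood at 164, 184, 151, 167 and 219 CPM (log2 fold change 0.04). Lhx1, a factor of the GABAergic lineage that granule barcodes also carried, fell from 84.8 and 82.6 CPM to 45.1, 41.9 and 44.5 CPM (fell by 0.94, adjusted p = 3.07e-05). With those clusters left out Lhx1 stood at 57.9, 56.0, 42.5, 47.9 and 44.0 CPM, without overlap, like 2495 of the 11222 genes tested. It did not pass there (log2 fold change -0.34, edgeR adjusted p = 0.706). None of these 4 genes passed the test outside the mixed clusters, and each had a log2 fold change closer to 0 there.

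By list, the counts called over all members are set against 7.02% of all genes tested in the Insm1 line (4.09% higher, 2.93% lower) and 6.93% in the Tead1/2 line (4.57% higher, 2.36% lower). Of 38 skeletal muscle genes tested 36 rose in the Insm1 mutants and 38 in the Tead1/2 mutants, with median log2 fold changes of 4.66 and 4.83. Of 14 granule-lineage genes outside the rule 8 fell in each line, with medians of -0.65 and -0.60. The medians over all genes tested were 0.02 and -0.00. Of 12 proliferation genes 5 fell in the Insm1 line (Mki67, Cenpf, Top2a, Tyms and Ccnd2) and none in the Tead1/2 line. Of 15 glutamate receptor genes 3 fell and 1 rose in the Insm1 line, and 5 fell in the Tead1/2 line (Grin2b, Grik2, Grik1, Gria2 and Gria4). Gria2, an AMPA receptor subunit, fell by 0.44 and 0.65 on the log2 scale over all members, against -0.26 and -0.30 outside the mixed clusters, where it did not pass (adjusted p = 0.685 and 0.236). Of 14 GABA and glycine receptor genes 2 rose (Gabrb2 and Gabrg3) and 1 fell (Gabra2) in the Insm1 line, and Gabra2 fell in the Tead1/2 line as well. Of 10 genes of GABA and glycine handling none was called in the Insm1 line and 2 rose in the Tead1/2 line, the chloride importer Slc12a2 and the glial glycine transporter Slc6a9. Of 9 molecular layer interneuron genes Sorcs3 and Cdh22 rose in the Insm1 line and Lypd6 in the Tead1/2 line. Of 12 lineage factors Lhx1 fell in both lines and Meis2 rose in the Tead1/2 line. Of 2 Purkinje-layer interneuron genes tested Edil3 fell in both lines, by 1.23 and 1.008 on the log2 scale, against -0.07 and 0.01 outside the mixed clusters. Of 3 Golgi cell genes tested Scg2, a secretogranin, fell in the Tead1/2 line by 1.51, and had too few counts to be tested outside the mixed clusters.

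**Figure D4:**
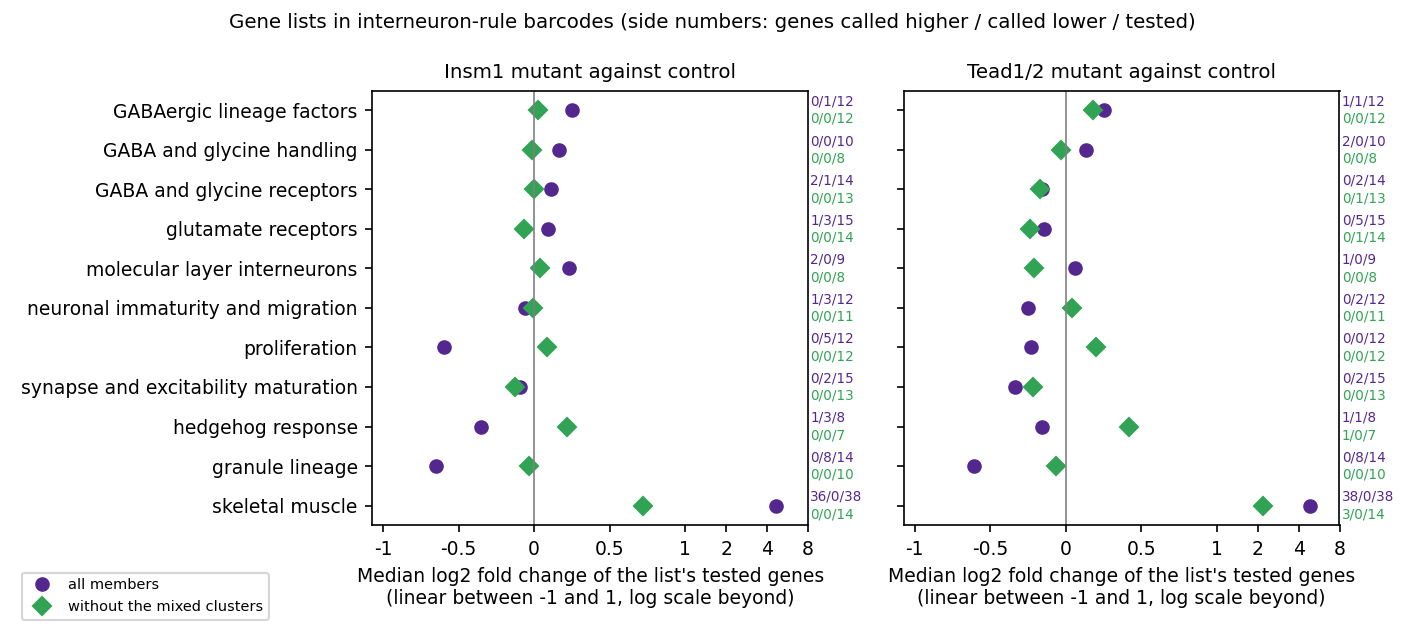
Median log2 fold change of mutant against control over the tested genes of each list (x axis, linear between -1 and 1 and on a log scale beyond) in both lines, over all members (circles) and outside the mixed clusters (diamonds), with the numbers called higher, called lower and tested at the side. The muscle list lies far to the right over all members, and the granule and proliferation lists lie closer to 0 outside the mixed clusters.

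The 5 hedgehog, immaturity and synapse results that depended on the clusters are given with both values. Gli2 fell in the Insm1 line over all members (419 and 399 to 242, 223 and 242 CPM, edgeR adjusted p = 0.000183) and stood at 136, 123, 134, 149 and 154 CPM outside the mixed clusters. It fell in the Tead1/2 line as well over all members, from 425 and 335 to 293, 257 and 279 CPM (fell by 0.46 on the log2 scale, edgeR adjusted p = 0.0093), the opposite sign to the 0.42 outside the mixed clusters. Hhip, a Hedgehog-binding inhibitor, rose in both lines over all members, by 0.52 and 0.59 on the log2 scale, and outside the mixed clusters its log2 fold changes were 0.36 and 0.52 (adjusted p = 0.706 and 0.0879). Stmn2, a microtubule regulator of growing neurites, fell by 0.55 and 0.27 over all members, against -0.21 and 0.10 outside the mixed clusters. Unc5c, a netrin receptor, fell by 0.40 in the Tead1/2 line over all members and had a log2 fold change of -0.38 outside the mixed clusters, where it did not pass (adjusted p = 0.0978). Syt1, a synaptic vesicle calcium sensor, fell by 0.40 and 0.39 over all members, against -0.41 and -0.01 outside the mixed clusters (adjusted p = 0.514 and 1). Hhip and Unc5c thus had like sizes in both sets, while Gli2 and Stmn2 did not.

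Skeletal muscle transcripts were present in the interneuron barcodes of every mutant library and near a common low level in the controls. The summed muscle list stood at 90.6, 90.7, 87.8 and 127 CPM of all UMIs in the 4 control libraries. It stood at 2047, 3544 and 2167 CPM in the Insm1 mutants and at 4304, 5150 and 3410 CPM in the Tead1/2 mutants. The difference was 5.04 on the log2 scale (exact permutation within lines, p = 0.01, the smallest these libraries allow). Outside the mixed clusters the controls stood between 72.6 and 99.0 CPM, the Insm1 mutants at 192, 187 and 122 CPM and the Tead1/2 mutants at 276, 810 and 561 CPM. Most of the muscle signal of the members therefore sat in the mixed clusters.

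Other cell classes of the same libraries carried the muscle list too. Granule barcodes stood at 87.0 to 108 CPM in controls and at 1576 to 4287 CPM in mutants. Microglia-marked barcodes, a class of a different embryonic origin, stood at 1247 to 6994 CPM in mutants, and endothelial-marked barcodes at 274 to 2033 CPM. The interneurons outside the mixed clusters had been cleared of the muscle-led cluster 13 and the other classes had not, so their levels are given side by side with no comparison. The barcodes of the Purkinje rule ranged from 369 to 2125 CPM in mutants, on 15 to 496 muscle UMIs per library. In mutants the members as a whole stood 0.43 higher than granule barcodes on the log2 scale (exact sign-flip permutation over 6 libraries, p = 0.0312, the smallest possible). With cluster 13 and the other mixed clusters left out of the members, but nothing left out of the granule barcodes, the value was -3.07, given as a description because the choice was made on one side alone. Among members of 1000 to 10000 UMIs, set against granule barcodes with no such limit, it was -1.81. The part of free RNA and of joined cells in these values was not tested.

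**Figure D5:**
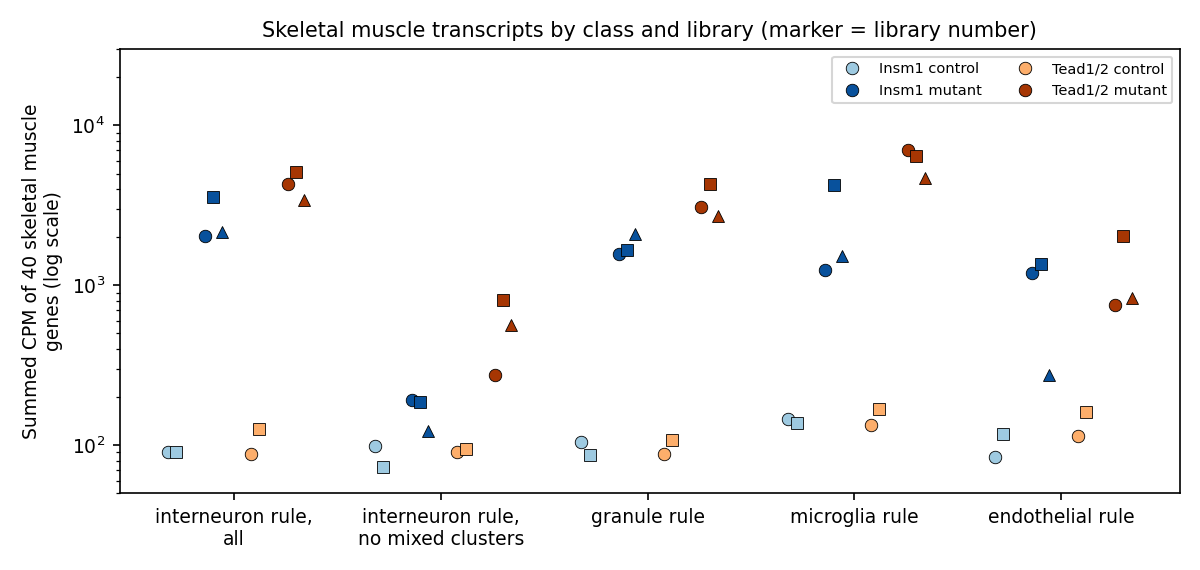
Summed CPM of the 40 genes of the skeletal muscle list (y axis, log scale) by cell class and library (markers, library numbers; colours, groups). The controls of the 5 sets drawn lie between 72.6 and 169 CPM, and within each set the mutants lie higher than the controls. The interneurons outside the mixed clusters lack the muscle-led cluster, which was not removed from the other classes.

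The lists of other cell types in the members outside the mixed clusters were as follows. In the Insm1 line the granule list ranged from 2052 to 2285 CPM without Cre and from 2094 to 2241 CPM with it. In the Tead1/2 line it ranged from 2148 to 2174 CPM without Cre and from 2053 to 2121 CPM with it. The astroglial list ranged over the 10 libraries from 425 to 608 CPM, the endothelial list from 26.2 to 41.4 and the meningeal list from 2.83 to 15.5. The microglial list stood at 36.3 to 36.7 CPM in the Insm1 controls and 47.4 to 63.5 CPM in the Insm1 mutants, which did not overlap, and at 74.6 to 179 and 56.2 to 179 CPM in the Tead1/2 groups, which did. Its part in the results above was not tested. Over all members the granule list of the Insm1 line stood at 3496 to 3759 CPM without Cre and at 2389 to 2544 CPM with it, and that of the Tead1/2 line at 3195 to 3230 CPM without Cre and at 2126 to 2392 CPM with it.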

How the data were processed

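Per the labels' protocols, P7 cerebella were dissociated with papain, 1 animal per library, and fixed and barcoded by split-pool ligation (Parse Evercode WT v3). The authors deposited raw UMI counts per gene and barcode for barcodes with at least 10 transcripts. The gene tables list 57010 genes of GRCm39, per the file headers; the aligner of these counts is not given in the sources used here. Libraries were grouped by the names in the deposited cell metadata.

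Kept barcodes had 1000 to 20000 transcripts and at least 500 genes. Members were clustered with scanpy 1.11.5 (Leiden resolution 0.6, 30 principal components of 2000 variable genes, 15 neighbours). Counts were summed per library and tested with edgeR 4.0.16 in R 4.3.3 (quasi-likelihood, TMM, filterByExpr, 4 groups of 10 libraries), with Benjamini-Hochberg adjustment over all genes tested and a threshold of 0.05; the scripts were tested on simulated data. DESeq2 1.42.0 was an alternative. Shares and list levels were tested by exact two-sided permutation over libraries (scipy 1.17.1), with a pseudocount of 1 on list CPM. Intervals of counts cover counting error only. P-values measure the spread between animals, with 2 or 3 per group. Summed UMIs per library were 2935065 to 6147568 over all members and 1418387 to 3845085 outside the mixed clusters.

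Named genes were the targeted genes, the rule markers, and per line the 10 largest rises and falls called with at least 20 CPM in the higher group, no overlap and no place on another cell type's list. To these came the called genes of each interneuron list (or the 2 most abundant), the 5 most abundant muscle genes and the 5 smallest p-values of the difference. The members and lists were chosen with earlier results of these data known. The definition of the mixed clusters, the fits without them and in single clusters, and the genes named from them were chosen after seeing the data. The bulk, chromatin and binding data of the series were not analysed here. Some measured genes are not reported here.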

Additional observations from a re-analysis of the deposited data

Results flagged for a closer look

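Grin2b, the GluN2B subunit of the NMDA receptor, differed between the effects of the 2 mutants in interneurons outside the mixed clusters. Its log2 fold change was -1.12 in the Tead1/2 mutants and -0.22 in the Insm1 mutants, a difference of -0.905 (edgeR quasi-likelihood test, adjusted p = 0.0495, 1 of 11222 genes). All 3 Tead1/2 mutants lay below both of their controls, and so did all 3 Insm1 mutants. Over all members the difference was -0.80 and did not pass in edgeR (adjusted p = 0.526), while it passed there by DESeq2 (adjusted p = 0.0346) and without the filter on low counts (adjusted p = 3.77e-07). DESeq2 also called it outside the mixed clusters (adjusted p = 0.000168). The edgeR call outside the mixed clusters was lost with the replicate number as a block (adjusted p = 0.0652), with a sex term (adjusted p = 0.11) and in each of clusters 3, 5, 7 and 10 fitted alone (adjusted p = 0.43 to 0.972), with the same direction throughout. The controls of the lines stood far apart in Grin2b, and the part of that gap in the result was not tested.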

How the results depend on the processing

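The Insm1 count was 966 over all members and 0 outside the mixed clusters, the Tead1/2 count 954 and 64, and the count for the difference between lines 0 and 1. Without the filter on low counts the counts over all members were 1522, 1463 and 128 (difference). They were 222 and 383 among members with no exclusion gene, and 166 and 143 at 1000 to 10000 UMIs, where rises made up 34.9% of the Insm1 calls and 54.5% of the Tead1/2 calls against 58.3% and 65.9% in the full range. DESeq2 called 2 genes in the difference. Outside the mixed clusters the Insm1 count was 2 by DESeq2, 1 with a sex term and 4 in cluster 7 alone. There the Tead1/2 count was 37 with a sex term and 10, 21, 13 and 1 in clusters 3, 5, 7 and 10 alone. The difference count was 0 with a sex term and in clusters 5, 7 and 10 alone. With the replicate number as a block, which does not pair these animals (correlations of same-numbered residuals from -0.10 to 0.07 over all members and from -0.09 to 0.12 outside the mixed clusters), 863 and 811 genes were called over all members, and 41 and 0 (difference) outside the mixed clusters. When 1 library at a time was left out, the counts ranged from 468 to 1068 (Insm1), 457 to 986 (Tead1/2) and 0 to 1 (difference) over all members, and from 0 to 6, 18 to 91 and 0 to 5 outside the mixed clusters. The lowest Tead1/2 counts there were 18 without Tead1/2 control 2, 23 without control 1 and 30 without mutant 2, and the highest was 91 without mutant 1.

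The Insm1 share difference was 1.38 percentage points with no exclusion gene, 2.64 outside the mixed clusters and 1.61 after thinning, and 1.60 to 2.30 with 1 library left out. Shares outside the mixed clusters leave the mixed-cluster members out of the denominator as well. The other shares ranged, with 1 library left out, from 0.10 to 2.00 (Tead1/2), 1.07 to 2.02 (both lines) and 1.37 to 2.56 (outside the granule rule, which was 2.74 at 1000 to 10000 UMIs and 2.66 outside the mixed clusters). The Purkinje ratio ranged from -46.9 to -20.4. The muscle difference ranged from 4.91 to 5.17. The muscle level of interneurons against granule barcodes ranged from 0.30 to 0.51. It was 0.53 with no exclusion gene and 0.43 with at least 3 markers (exact permutation p = 0.0625 for both), and reversed to -1.81 at 1000 to 10000 UMIs and -3.07 outside the mixed clusters, where the muscle-led cluster was left out of the interneurons alone. Against the main fit of the same set of members, signs that reversed in single genes of the Tead1/2 line were Megf10 (-0.38 at 1000 to 10000 UMIs; 0.17 in cluster 5 alone), Stmn2 (0.053 at 1000 to 10000 UMIs), Cabp1 (-0.076) and Acer3 (-0.001) in cluster 3 alone, Sdk2 (0.038) in cluster 5 alone, and Rian in clusters 7 (0.027) and 10 (0.052) alone. Where no value is given for the reason, the cause was not tested. Of the other values for named genes under these alternatives, 9184 kept direction and side of the threshold, 916 lost the call and 113 gained one. Neither the list of reversals nor this tally covers the change from all members to those outside the mixed clusters. Signs did turn with that change, among them those of Gli2, Stmn2 and Edil3 in the Tead1/2 line and of Mki67 in the Insm1 line. Depth limits the single clusters, of which cluster 10 had 5653 genes tested against 11222 for the sum.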

Other observations

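The 3 globin genes tested, which mark RNA of red blood cells, had a median log2 fold change of -2.51 in the Insm1 line over all members, where all 3 fell, and of -1.87 in the Tead1/2 line, where none was called. Without the mixed clusters the medians were -1.31 and -1.94 with no call. Cluster 4, with Nxph1 and Kit, made up 3.28 to 6.90% of the members outside the mixed clusters in the 5 Insm1 libraries and 0.63 to 1.35% in the 5 Tead1/2 libraries, controls included. Cdh22, an adhesion gene of molecular layer interneurons, rose in the Insm1 line over all members, from 13.9 and 15.5 to 30.1, 48.2 and 28.8 CPM (edgeR, adjusted p = 0.0154). Cdh22 outside the mixed clusters stood at 13.4, 16.2, 28.1, 63.0 and 24.3 CPM, without overlap, like 2495 of the 11222 genes tested. It did not pass the test there (edgeR, adjusted p = 0.285).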
